A study of Mus musculus with 3 samples.

Results

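The STAT family comprises the latent transcription factors that carry cytokine signals to the nucleus, and transcripts of 6 of its genes, Stat2, Stat3, Stat4, Stat5a, Stat5b and Stat6, were followed in mouse splenic T lymphocytes exposed to LZ-8 for 10 h. The members were taken by symbol from a table of raw counts, and all 6 were found among its 44788 rows. LZ-8 is a fungal protein, from Ganoderma lucidum, that acts on immune cells. The cells came from spleens of female BALB/c mice aged 6 to 8 weeks, were isolated on magnetic beads that bind CD90.2, the product of Thy1, and were kept in a medium with 2% serum. The 3 libraries all belong to this treated group, so each value is a level after LZ-8, with no untreated level to set it against.

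A cytokine that binds its receptor activates JAK kinases held on the receptor tails, and these phosphorylate a single conserved tyrosine near the carboxyl end of a STAT protein. The phosphorylated STATs pair through their SH2 domains, enter the nucleus and bind DNA. In T cells Stat4 is known for carrying the interleukin-12 signal of Th1 cells, Stat6 the interleukin-4 signal of Th2 cells, Stat3 the signals of interleukin-6, interleukin-21 and interleukin-23 that drive Th17 cells, and Stat5a with Stat5b the signals of interleukin-2, interleukin-7 and interleukin-15. Stat2 joins Irf9 in the complex that answers type I interferon. Transcript levels say nothing of phosphorylation, so none of the values below measures STAT activity.

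The codons around that tyrosine are shown for each gene because they mark what the members share and how close Stat5a and Stat5b are (coding strand of the principal GENCODE transcript, 10 codons on each side, with the tyrosine codon in capitals).
Stat2: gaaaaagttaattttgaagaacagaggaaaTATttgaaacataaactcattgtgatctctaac
Stat3: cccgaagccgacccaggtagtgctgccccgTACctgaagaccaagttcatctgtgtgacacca
Stat4: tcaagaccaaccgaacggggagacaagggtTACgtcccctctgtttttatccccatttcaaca
Stat5a: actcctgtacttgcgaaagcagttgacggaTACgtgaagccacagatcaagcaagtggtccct
Stat5b: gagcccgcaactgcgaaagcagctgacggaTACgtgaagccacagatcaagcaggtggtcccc
Stat6: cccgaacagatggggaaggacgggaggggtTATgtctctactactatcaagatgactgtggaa
Counted from the start codon, the tyrosine is codon 688 of 922 in Stat2, 705 of 770 in Stat3 and 693 of 748 in Stat4. It is codon 694 of 793 in Stat5a, 699 of 786 in Stat5b and 641 of 837 in Stat6. Stat2 and Stat6 use TAT and the other genes TAC.

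The 6 genes lie at 3 places in the genome (GRCm38, bounds of GENCODE release M21). Stat5b (chr11:100780731-100850724, minus strand), Stat5a (chr11:100859351-100885169, plus strand) and Stat3 (chr11:100885098-100939540, minus strand) stand side by side. Stat5b and Stat5a are transcribed away from each other across a gap of 8.63 kb, and the 3′ ends of Stat5a and Stat3 overlap by 72 exonic bases. Stat6 (chr10:127642986-127660957) and Stat2 (chr10:128270559-128292849) lie 610 kb apart on the plus strand, and Stat4 (chr1:51987148-52107189) is on the plus strand of chromosome 1.

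Stat5a was the most abundant of the 6 transcripts in CPM (counts in proportion to the TMM-scaled size of each library). It had 8840, 10565 and 10871 counts in replicates 1, 2 and 3, or 694, 697 and 673 CPM, with a mean of 688 ± 12.9 CPM (mean ± SD over 3 libraries here and below). Its close paralog Stat5b had 334, 333 and 327 CPM, from 4256, 5050 and 5272 counts, and averaged 331 ± 4.16 CPM. The Stat5a values lay above all values of the other members, and neither Stat5 gene varied between libraries by more than a few per cent of its level.

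Stat6 had 460, 442 and 441 CPM in replicates 1, 2 and 3, from 5851, 6699 and 7121 counts, and averaged 448 ± 10.5 CPM. Stat3 had 316, 311 and 315 CPM, from 4020, 4709 and 5078 counts, and averaged 314 ± 2.74 CPM. The Stat3 values were the least spread of the family and stayed below those of Stat5b in every library, although the 2 genes were close.

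Stat2 and Stat4 were the scarcest members. Stat2 had 99.999, 99.78 and 109 CPM, from 1273, 1513 and 1752 counts, and averaged 103 ± 4.99 CPM. Stat4 had 95.6, 99.7 and 103 CPM, from 1217, 1512 and 1664 counts, and averaged 99.5 ± 3.74 CPM. Both were highest in replicate 3, and their ranges overlapped each other. Together the 6 genes took 0.199% of all counts, with a summed level of 2000, 1982 and 1967 CPM in replicates 1, 2 and 3. In these bulk libraries fewer cells that hold a transcript and less of it per cell cannot be told apart.

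**Figure D1:**
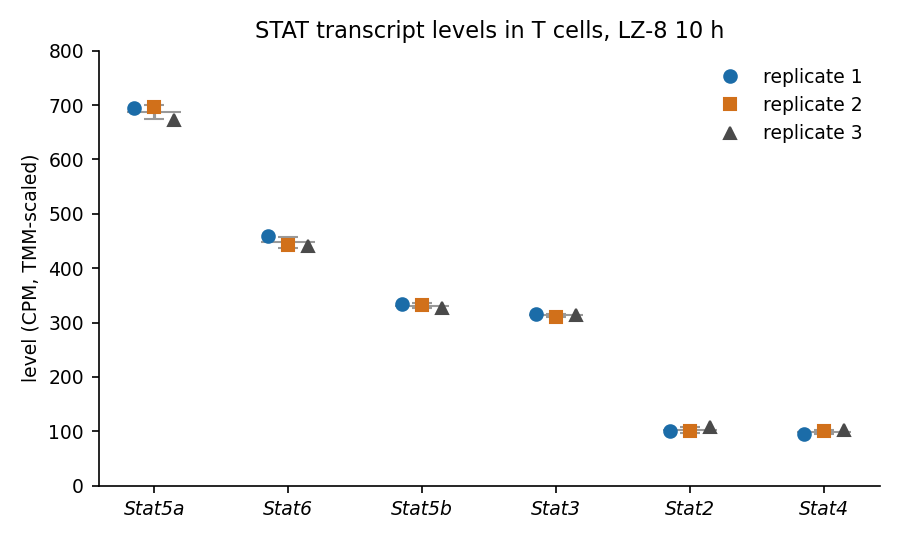
Level of each STAT gene in CPM (y axis, from 0) in the 3 libraries, with points for replicates 1 to 3, a horizontal bar for the mean and whiskers for the SD. Stat5a lies near 688 CPM, Stat6 near 448 CPM, Stat5b and Stat3 between 311 and 334 CPM, and Stat2 and Stat4 between 95.6 and 109 CPM.

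The order of the genes was then taken per length, since a longer transcript gives more fragments. CPM was divided by the merged exonic length of each gene, which was 5926 bases for Stat2, 9527 for Stat3, 3872 for Stat4, 7133 for Stat5a, 5539 for Stat5b and 4402 for Stat6. On this scale Stat6 had 104, 100.4 and 100.2 CPM per kb in replicates 1, 2 and 3, with a mean of 102 ± 2.39, and Stat5a had 97.4, 97.7 and 94.4, with a mean of 96.5 ± 1.80. Stat5b followed with 60.4, 60.1 and 58.96 CPM per kb and a mean of 59.8 ± 0.751, and Stat3 with 33.1, 32.6 and 33.0 and a mean of 32.9 ± 0.287. Stat4 had 24.7, 25.8 and 26.6 CPM per kb, with a mean of 25.7 ± 0.967, and Stat2 had 16.9, 16.8 and 18.3, with a mean of 17.3 ± 0.841. The levels of Stat6 and Stat5a came to 30.4% and 28.9% of the summed level per kb of the 6 genes, and that of Stat2 to 5.20%.

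Each neighbour in this order was compared with the next as a log2 ratio within each library. Stat6 exceeded Stat5a by a log2 ratio of 0.08 ± 0.03 and Stat5a exceeded Stat5b by 0.69 ± 0.01, a 1.61-fold difference. Stat5b exceeded Stat3 by 0.86 ± 0.02, Stat3 exceeded Stat4 by 0.36 ± 0.06 and Stat4 exceeded Stat2 by 0.57 ± 0.04. All 15 pairs kept 1 sign in the 3 libraries and had a ratio of over 2 SD. The test used, a two-sided exact sign-flip test, cannot go below 0.25 with 3 libraries, and all 15 pairs had that p, before and after Benjamini-Hochberg adjustment.

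The place of Stat5a and Stat6 depended on which length was used. Stat5a has 7 annotated transcripts, of which 5 are coding, and its merged length of 7133 bases is well above the 3888 bases of its longest coding transcript. Per kb of the longest coding transcript, Stat5a was at 177 ± 3.31 and Stat6 at 119 ± 2.78, so the log2 ratio of Stat6 to Stat5a turned to -0.58. Per kb of coding sequence it was -0.69. The levels of Stat5b and Stat3 also came close on that scale, at 141 ± 1.76 and 136 ± 1.18 CPM per kb, with a log2 ratio of 0.05. Stat4 stayed above Stat2 under all 3 lengths, but without any division by length Stat2 was above Stat4 and the difference was within the spread.

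**Figure D2:**
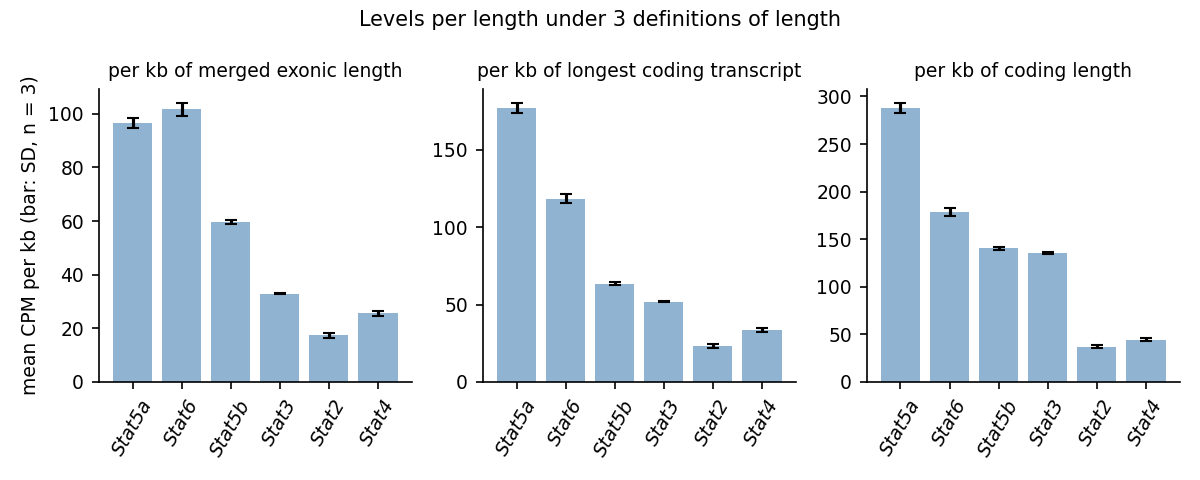
Mean level of each STAT gene in CPM per kb (y axes, each from 0) with the length taken as merged exonic sequence (left), the longest coding transcript (middle) or the coding sequence (right). Bars are means and whiskers the SD over 3 libraries. Stat6 is above Stat5a in the left panel only, at 102 against 96.5 CPM per kb.

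Stat5a and Stat5b arose by duplication and remain so alike that reads could be divided between them. Their coding sequences were identical at 2124 of 2346 aligned bases (90.5%), while the other 14 pairs of members were identical at 55.5% to 62.7%. The longest run without a mismatch was 324 bases, from coding base 571 in both genes, and its first 90 bases are shown because reads inside it cannot be assigned to either gene by sequence.
Stat5a and Stat5b, start of the shared run: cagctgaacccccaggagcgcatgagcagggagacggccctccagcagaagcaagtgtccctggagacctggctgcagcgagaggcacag
Of the 50-base windows of the principal transcripts, 15.8% of those of Stat5a occurred in Stat5b and 11.8% of those of Stat5b in Stat5a, and of the 100-base windows 6.99% and 5.18%. The sources used here do not say how the authors' counting treated such reads, so the split between the genes is uncertain, and so is their sum if shared reads were dropped or counted in both. The deposited counts summed to 1029, 1030 and 999.9 CPM in replicates 1, 2 and 3, with a mean of 1019 ± 16.9 CPM.

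The likeness of the pair reached outside the coding sequence. Beside 1 of the annotated starts of each gene lay a stretch of 60 bases identical at 53 of them (RefSeq, GRCm38.p6, gene strand, with capitals where the genes differ).
Stat5a, chr11:100860418-100860477, plus strand: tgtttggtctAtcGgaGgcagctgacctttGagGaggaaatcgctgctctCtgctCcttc
Stat5b, chr11:100822568-100822627, minus strand: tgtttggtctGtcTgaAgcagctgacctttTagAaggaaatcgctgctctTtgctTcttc

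Other members shared sequence or position with genes outside the family. Of the 50-base windows of Stat4, 28.6% occurred in Gm28177, a processed transcript on the same strand that overlaps Stat4 by 1033 exonic bases. Stat6 overlaps the 3′ end of Nab2, a corepressor gene on the opposite strand, by 40 exonic bases. No 50-base window of the principal transcript of Stat2, Stat3 or Stat6 occurred, read on the coding strand, in a transcript of another gene. That search did not read the opposite strand, so it could not show the overlaps of Stat3 with Stat5a or of Stat6 with Nab2. Whether the counting used strand is not known, so counts from the overlaps are uncertain.

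The spread of the members between libraries was then set against counting error. A chi-square test set the 3 raw counts of each gene against the effective library sizes, and 42.8% of the 15392 genes tested differed at a Benjamini-Hochberg adjusted p of 0.05. Of the genes tested, 19.1% differed and were highest in replicate 3, and 17.9% in replicate 1. With edgeR's TMM scaling 0 of the 6 STAT genes differed, while 3 had an unadjusted p under 0.05. The adjusted p was 0.0553 for Stat5a, 0.0561 for Stat2, 0.0753 for Stat6, 0.226 for Stat4, 0.569 for Stat5b and 0.784 for Stat3. Among genes within 1.5-fold of a member in CPM, 68.1% differed around Stat2, 85.4% around Stat3, 68% around Stat4, 90.3% around Stat5a, 85.2% around Stat5b and 88.1% around Stat6. The scaling mattered to this count: with DESeq2 size factors 1 of 6 differed, Stat6 with an adjusted p of 0.0251, and with no scaling factor 4 of 6 did. Over all genes 6589 differed with TMM, 6548 with DESeq2 size factors and 7312 with no scaling factor. The test sets the libraries against counting error only, with reads taken as independent molecules, so a gene that differed did so beyond that error and not between conditions. The labels do not say whether the libraries came from separate animals or cultures, so the spread may be technical.

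The coefficient of variation over the 3 libraries was 0.872% for Stat3, 1.26% for Stat5b, 1.87% for Stat5a, 2.35% for Stat6, 3.76% for Stat4 and 4.85% for Stat2. The median over genes within 1.5-fold of each member in CPM ran from 6.51% (216 genes around Stat5a) to 7.70% (2131 genes around Stat4). With edgeR's estimate, which borrows spread from all genes, the biological coefficient of variation of the members was 0.101 to 0.106. The trend fitted over level was 0.127 to 0.133 at the members, and the common value over 13676 genes was 0.154.

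**Figure D3:**
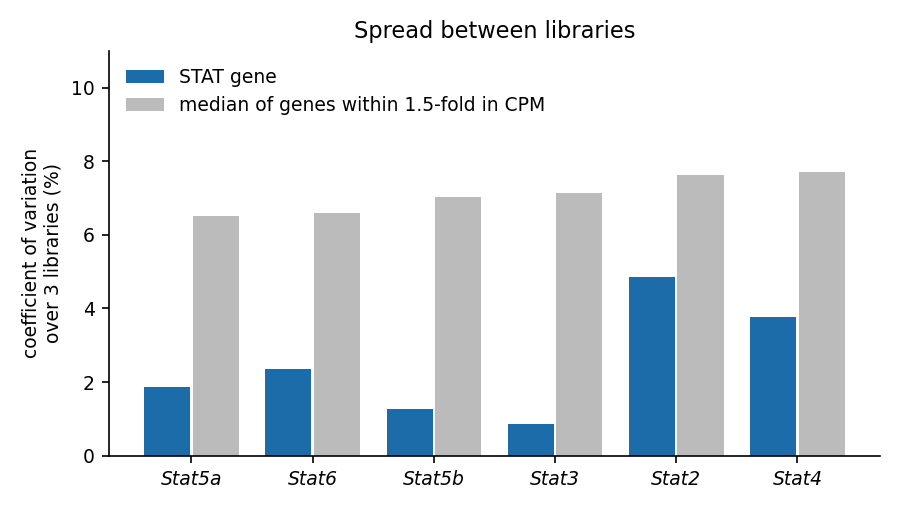
Coefficient of variation over the 3 libraries in per cent (y axis, from 0) for each STAT gene (blue) and the median over genes within 1.5-fold of it in CPM (grey). The STAT genes lie between 0.872% and 4.85%, and the medians between 6.51% and 7.70%.

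Replicates 1 and 3 were the furthest apart over all genes, and the members split in sign between them. The log2 ratio of replicate 1 to replicate 3 was 0.01 for Stat3, 0.03 for Stat5b, 0.04 for Stat5a and 0.06 for Stat6, and -0.11 for Stat4 and -0.12 for Stat2. Counting error alone gave 95% half-widths of 0.04 (Stat5a) to 0.11 (Stat4). Over 8993 coding genes the middle 80% of ratios ran from -0.39 to 0.38, with a median of -0.06. After a trend with transcript length and GC content was taken out the values were -0.07 for Stat2, 0.01 for Stat4 and 0.05 to 0.07 for the other members. With no scaling factor all 6 ratios were below 0, from -0.04 to -0.22, and the median over genes of at least 10 CPM was -0.14, against -0.05 with TMM.

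The JAK kinases, which phosphorylate the STATs, lay within the range of the STATs per length. Jak2 had 406, 464 and 481 CPM in replicates 1, 2 and 3 (adjusted p = 6.94e-20 in the chi-square test), and Jak1 had 465, 435 and 421 CPM (adjusted p = 4.30e-07). Jak3, which pairs with the common gamma chain, had 173, 183 and 194 CPM (adjusted p = 0.000727), and Tyk2, a kinase of the interferon and interleukin-12 receptors, had 128, 140.4 and 142 CPM (adjusted p = 0.0103). All 4 differed between libraries, as did 42.8% of all genes tested and 68% to 90.3% of genes at the levels of the STAT genes. Jak1 was highest in replicate 1 and the others in replicate 3. With no scaling factor Jak1 no longer did (adjusted p = 0.277). Per kb of exonic sequence, Jak2 was at 89.6 ± 7.82, Jak1 at 60.9 ± 3.16, Jak3 at 34.2 ± 1.96 and Tyk2 at 19.9 ± 1.10 CPM per kb.

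**Figure D4:**
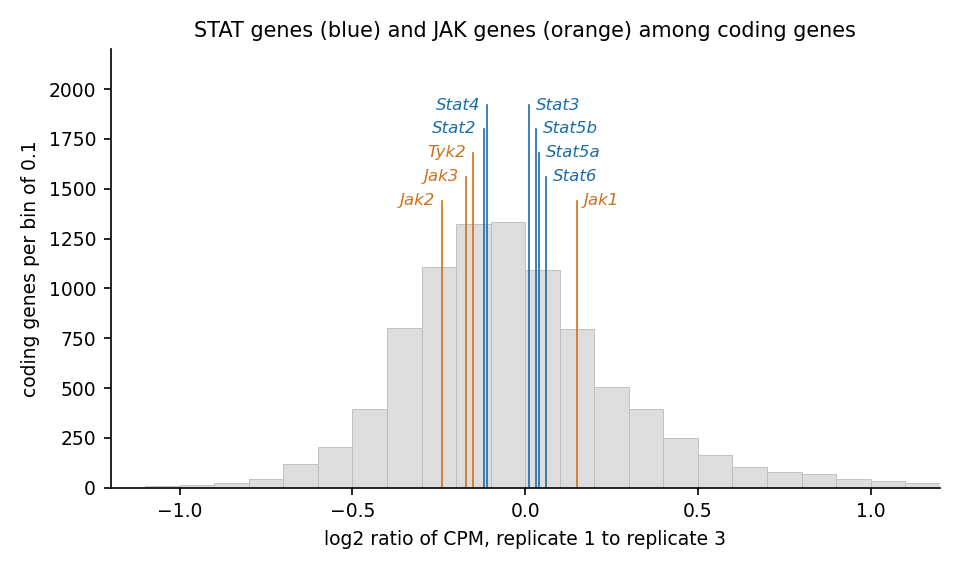
Distribution of the log2 ratio of CPM in replicate 1 to replicate 3 (x axis) over coding genes of at least 5 CPM (grey, number per bin of 0.1 on the y axis), with lines at the STAT genes (blue) and JAK genes (orange). The STAT genes lie between -0.12 and 0.06, and the JAK genes between -0.24 and 0.15.

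Receptors that feed Stat5a and Stat5b included the 3 genes with the highest levels per kb among the receptors listed. Of 16 such genes, 7 averaged 10 CPM or more, a level reached by 39.8% of the 23131 genes with a count. Il2rg, the common gamma chain, was at 204 ± 5.14 CPM per kb, Il2ra, the alpha chain that gives the interleukin-2 receptor its high affinity, at 145 ± 12.9, and Il2rb, its signalling beta chain, at 99.6 ± 1.21. For Stat6, Il4ra, the signalling chain of the interleukin-4 receptor, was at 47.4 ± 4.78 CPM per kb beside Il2rg, whereas Il13ra1 had 2, 1 and 3 counts.

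Receptors of Stat3, Stat4 and Stat2 followed. Of 10 genes for Stat3 receptors, 6 averaged 10 CPM or more, led per kb by Il27ra at 56.3 ± 3.64, Il21r at 42.7 ± 1.44 and Il6st, the shared signalling chain gp130, at 23.1 ± 0.760 CPM per kb. Without division by length Il6st was the highest, at 257 CPM, against 197 for Il27ra and 142 for Il21r. Lifr and Osmr, receptors of leukaemia inhibitory factor and oncostatin M, had no count in any library, against a floor of 3 counts that corresponds to 0.186 to 0.236 CPM and covers counting error only. For Stat4, the 2 chains of the interleukin-12 receptor were unequal, with Il12rb1 at 19.8 ± 1.44 and Il12rb2 at 4.86 ± 0.245 CPM per kb, and Il23r was at 0.507 ± 0.164. For Stat2, Ifnar1 and Ifnar2 of the type I interferon receptor were at 18.2 ± 0.373 and 8.43 ± 0.242 CPM per kb, and Il10rb at 8.32 ± 0.221. Ifnlr1, the specific chain of the interferon lambda receptor, had 0, 1 and 6 counts.

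Of 22 cytokines that act through STATs, 3 averaged 10 CPM or more, and 9 stayed below 1 CPM in each library. Those 9 include 3 with no count at all. Among genes with a count, a set that leaves such genes out, 38.9% stayed below 1 CPM. Il2, the growth factor of activated T cells, was at 34.7 ± 2.65, Ifng at 32.6 ± 4.41 and Lif at 13.8 ± 0.769 CPM per kb. Il7, Il9 and Ifnb1 had no count in any library.

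Inhibitors of the pathway were all detected. The 8 genes of the SOCS family, whose products block JAKs and receptors, each averaged 10 CPM or more. Cish, a known target of Stat5a and Stat5b that restrains the same signal, led them at 58.1 ± 5.10 CPM per kb, with 342, 371 and 407 CPM in replicates 1, 2 and 3 (adjusted p = 2.15e-17 in the chi-square test). Socs1, an inhibitor of JAK kinases, was at 12.9 ± 4.11 CPM per kb and went the other way, with 47.6, 40.6 and 24.3 CPM (adjusted p = 1.87e-24), and Socs7 was at 8.76 ± 0.522 CPM per kb. Of the 8 SOCS family genes 4 differed between libraries, 3 highest in replicate 3 and 1 in replicate 1, where 42.8% of all genes tested differed. The 4 PIAS genes, SUMO ligases that bind STATs, were also at 10 CPM or more, with Pias2 at 19.9 ± 2.60, Pias4 at 11.7 ± 0.212, Pias1 at 7.17 ± 0.395 and Pias3 at 3.02 ± 0.139 CPM per kb. Of 6 phosphatases 5 reached that level, led per kb by Ptpn6, known as SHP-1, at 123 ± 1.57, Ptprc, which encodes CD45, at 100.2 ± 5.98 and Ptpn1 at 34.6 ± 4.29 CPM per kb. Without division by length Ptprc was the highest, at 1834 CPM against 344 for Ptpn6.

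**Figure D5:**
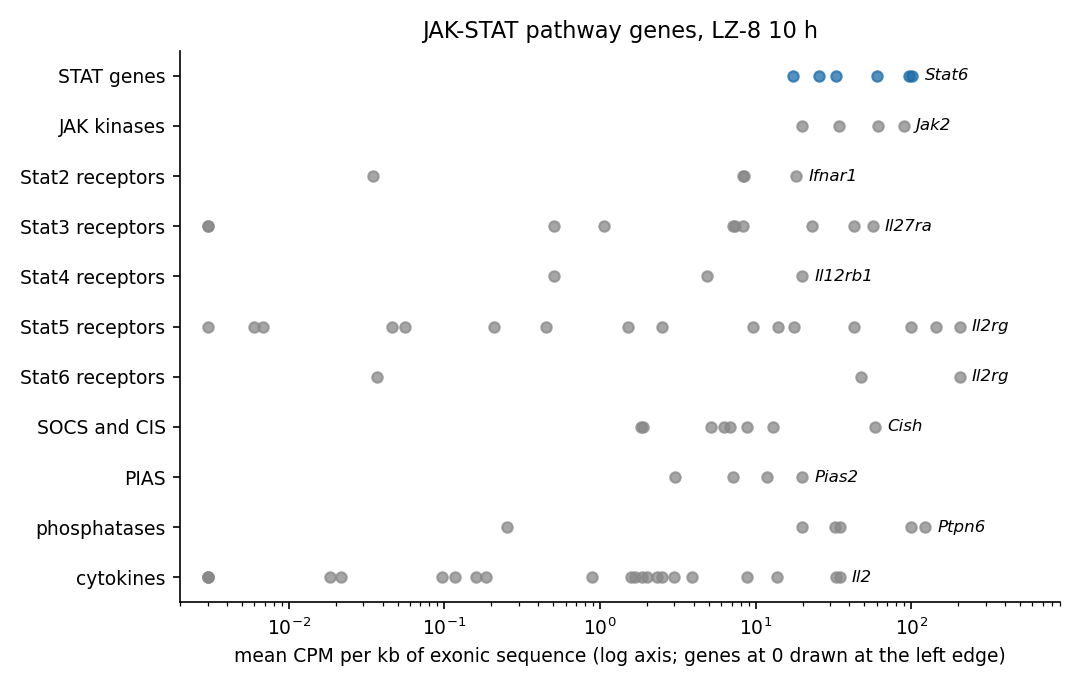
Mean level in CPM per kb of exonic sequence (x axis, log scale) of the STAT, JAK, receptor, inhibitor and cytokine genes (rows), 1 point per gene, with STAT genes in blue and the highest gene of each row named. Genes with no count are drawn at the left edge. The STAT genes span 17.3 to 102 CPM per kb, and the JAK genes 19.9 to 89.6.

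Partners and target genes of each member were listed last. The 7 listed partners and coactivators each averaged 10 CPM or more. Per kb, Kpnb1, an importin, was at 117 ± 5.24, Ndufa13, whose product binds Stat3, at 51.0 ± 15.1, and Irf9, the DNA-binding partner of Stat2, at 23.7 ± 0.505 CPM per kb. Ndufa13 had 84.5, 59.3 and 47.6 CPM in replicates 1, 2 and 3, below Irf9 with a mean of 128 CPM. Of 11 targets of Stat5a and Stat5b, 10 averaged 10 CPM or more and 8 reached 100 CPM (11% of genes with a count did), among them Il2ra, the kinase gene Pim1 at 137 ± 3.26 and the cyclin gene Ccnd2 at 107 ± 4.47 CPM per kb. Of 13 targets of Stat3, 8 reached 10 CPM, led by Pim1, the oxygen-sensing factor Hif1a at 74.3 ± 8.38 and Junb at 72.3 ± 8.50 CPM per kb. These genes have many other regulators, and no list measures the activity of a STAT.

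Targets of Stat4 and Stat6 came next. Of 7 Stat4 targets, 5 averaged 10 CPM or more, with Ifng as above, the Th1 regulator Tbx21 at 24.7 ± 0.689 and the protease gene Furin at 13.8 ± 0.541 CPM per kb, and Hlx had no count in any library. Of 6 Stat6 targets, 4 did, with Il4ra as above, the repressor gene Gfi1 at 46.5 ± 1.28 and Nfil3 at 13.7 ± 1.10 CPM per kb, and Il24 had no count. Over all lists of receptors, kinases, cytokines, inhibitors, partners and targets, 74 of 120 genes averaged 10 CPM or more, as did 39.8% of genes with a count. Of the 101 tested, 53 differed between libraries, where 42.8% of all genes tested did. That share was 68% to 90.3% among genes at the levels of the STAT genes, and genes matched to these lists in level were not compared.

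Of 12 targets of Stat2 complexes, which are interferon-stimulated genes, 7 averaged 10 CPM or more and 0 reached 100 CPM. Among genes with a count, 39.8% and 11% reached these levels. The tethering factor gene Bst2 was at 66.1 ± 10.8, the ubiquitin-like modifier gene Isg15 at 34.1 ± 3.88 and the regulator gene Irf7 at 13.9 ± 0.736 CPM per kb. Of the 12, 7 differed between libraries, 5 of them highest in replicate 3 and 2, Bst2 and Isg15, in replicate 1. The log2 ratio of replicate 1 to replicate 3 was 0.46 for Bst2 and 0.26 for Isg15. Over all genes tested with TMM scaling, 42.8% differed, 19.1% with the highest level in replicate 3 and 17.9% in replicate 1. With no scaling factor 9 of the 12 differed, 8 highest in replicate 3 and 1 in replicate 1. Genes in general moved the same way under that setting. Over all genes 7312 differed, against 6589 with TMM, and the median log2 ratio of replicate 1 to replicate 3 was -0.14, against -0.05. The share of all genes highest in replicate 3 was not counted with no scaling factor, so the 8 targets have no share beside them. Stat2 itself was highest in replicate 3, where replicate 1 over replicate 3 gave a log2 ratio of -0.12, with an adjusted p of 0.0561 under TMM scaling (chi-square test). With no scaling factor its ratio was -0.22 and it differed (adjusted p = 0.000407), and with TMM scaling and an expected count of 20 as the minimum it also did (adjusted p = 0.0488). After the trend with transcript length and GC content was taken out, the ratio of Stat2 was -0.07. Whether Stat2 and these targets shifted together was not tested.

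Of the promoter windows of the 6 genes (9 windows from RefSeq, GRCm38.p6, from 250 bases before to 50 bases after an annotated start), that of Stat2 is shown because it holds both motif types found there. Windows were searched on both strands for the GAS element bound by STAT dimers (TTCNNNGAA), its longer form preferred by Stat6 (TTCNNNNGAA) and the interferon-stimulated response element bound with Irf9 (GAAANNGAAA). Capitals mark the matches, of which the first is the response element on the other strand, 222 bases upstream of the start, and the second the longer element, 210 bases upstream, with no overlap.
Stat2, chr10:128270248-128270547, plus strand: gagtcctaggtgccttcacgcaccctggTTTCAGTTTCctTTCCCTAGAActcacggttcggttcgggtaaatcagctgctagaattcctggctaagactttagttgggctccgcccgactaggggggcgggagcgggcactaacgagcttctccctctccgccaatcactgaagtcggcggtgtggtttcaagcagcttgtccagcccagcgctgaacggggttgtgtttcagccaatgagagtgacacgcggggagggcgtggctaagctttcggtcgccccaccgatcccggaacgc
The response element was also found in 1 of the windows of Stat4, 97 bases upstream, and the GAS element in 0 of the 9 windows. Of 32851 promoter windows of the same length, 3.44% held the response element, 6.95% the longer element and 8.30% the GAS element. A match is a description of letters and not a bound site.

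The genes closest to each member in level over the 3 libraries, by the root mean square difference of log2 CPM per kb among 12832 genes, were Herc2 (0.007) and Polr3a (0.021) for Stat2, and Ppat (0.013) and Ap1b1 (0.014) for Stat3. They were Phrf1 (0.020) and Mrpl20 (0.021) for Stat4, and Prkar1a (0.024) and Mars (0.035) for Stat5a. For Stat5b they were Pgam1 (0.006) and Gm12184 (0.014), and for Stat6 Cd27 (0.027) and Cdc34 (0.032).

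The libraries held 13239482 to 15683820 counts. Markers of T cells fitted the label, with all 14 averaging 10 CPM or more and Cd5 the most abundant at 651 ± 26.3 CPM. Summed CPM of other lists, in per cent of the T cell list, was 0.301% to 0.333% for B cells and 0.322% to 0.419% for macrophages and monocytes (Mpeg1 highest at 9.20 CPM, Csf1r at 0). It was 0.765% to 0.851% for the NK cell list and 0.00158% to 0.0265% for neutrophils (Ngp highest at 0.179 CPM). The NK cell sum came mostly from Prf1, Klrk1 and Eomes (12.7, 10.3 and 9.06 CPM), with Ncr1 at 0. A share of summed CPM is not a share of cells. The STAT genes are known to be expressed in these cell types too, and the part of those cells in the levels was not tested.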

How the data were processed

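RNA of splenic T lymphocytes was extracted with Trizol and sequenced as 3 libraries made with an Ion Proton RNA-Seq kit, per the labels' protocols. The authors deposited unnormalized whole-number counts for gene symbols, 1 column for each replicate. The submitters' processing notes name mm10 as the build. No aligner, counter, annotation or filter was named in the sources. The members and gene lists were chosen with earlier results of these data known.

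Counts were scaled with edgeR 4.0.16 in R 4.3.3 (TMM factors 0.962, 1.01 and 1.03) to CPM. Gene models came from GENCODE release M21 (GRCm38), which matched 32204 of 44788 rows, 6 of 6 members among them. The chi-square test took genes with an expected count of at least 5 in each library, and dispersions were estimated with an intercept-only design. Both steps were tested on simulated data. The trend with length and GC content was a robust fit with splines of 6 degrees of freedom over coding genes of at least 5 CPM. Coding sequences were compared in place of proteins, as no protein table was used. Of the lists, Adgre1 was found under its older name. Named genes were the members, the JAK kinases and listed genes without a count. Others were the 3 highest per kb in each pathway list (all in lists of 4 or fewer). Their order is that per kb of merged exonic length and can differ in CPM. The highest of each marker list (with Klrk1 and Eomes for NK cells) and the 2 nearest in level to each member were named too. Some genes that this rule names are left out of the text. Cish, Socs1 and Jak1 to Jak3 with Tyk2 are given per library. Alternatives were DESeq2 1.42.0 size factors and dispersions, no scaling factor, other filters, lengths and thresholds, and leaving out each replicate.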

Additional observations from a re-analysis of the deposited data

How the results depend on the processing

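No paired analysis was possible because all libraries belong to 1 group. The log2 ratio of Stat6 to Stat5a turned from 0.08 per merged exonic length to -0.58 (longest coding transcript), -0.69 (coding length) and -0.62 (no division by length). In the same order of settings, Stat5a to Stat5b was 1.48, 1.03 and 1.05, Stat5b to Stat3 was 0.29, 0.05 and 0.08, Stat3 to Stat4 was 0.64, 1.62 and 1.66, and Stat4 to Stat2 was 0.51, 0.26 and -0.05, the last a reversal. These changes follow from the lengths themselves.

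The number of STAT genes that differed between libraries, 0 of 6, was 1 with DESeq2 size factors (Stat6, adjusted p 0.0251) and 2 at an expected count of 20 (Stat2 0.0488 and Stat5a 0.0480). It was 4 with no scaling factor (Stat2 0.000407, Stat3 0.0231, Stat4 0.00216 and Stat5a 0.00279). Over all genes, 6589 differed, against 6548 with DESeq2 size factors, 6395 at an expected count of 20 and 7312 with no scaling factor. Leaving out 1 replicate gave 3555 to 6403, with 3836 without replicate 1 and 3555 without replicate 3. With no scaling factor the log2 ratio of replicate 1 to replicate 3 was -0.09 for Stat3, -0.05 for Stat5a, -0.06 for Stat5b and -0.04 for Stat6, and with the length and GC trend taken out it was 0.01 for Stat4. The cause was not tested.

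Without 1 replicate, the level ran from 98.5 to 106 CPM for Stat2, 309 to 319 for Stat3 and 96.3 to 103 for Stat4. It ran from 680 to 699 CPM for Stat5a, 329 to 336 for Stat5b and 444 to 450 for Stat6. The biological coefficient of variation ran from 0.0888 to 0.153 for Stat2, 0.0904 to 0.160 for Stat3 and 0.0893 to 0.153 for Stat4. For Stat5a it ran from 0.0908 to 0.163, for Stat5b from 0.0905 to 0.161 and for Stat6 from 0.0903 to 0.162. Each was highest without replicate 2.

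The 3 libraries of 1 group limit what these data show: the exact sign-flip test of 2 members cannot go below 0.25, and no level has an untreated value beside it.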
